A study of Mus musculus with 6 samples.

Results

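Imprinted growth genes were examined in organoids of the mouse esophagus and stomach. The set holds 10 genes, *H19*, *Igf2*, *Igf2r*, *Cdkn1c*, *Dlk1*, *Meg3*, *Peg3*, *Mest*, *Grb10* and *Plagl1*, and every non-control probe carrying one of these names was taken. This gave 24 probes on 42 spots, of 55681 probes on 59305 spots under 34298 gene names. RNA was hybridized to 6 single-color Agilent arrays, 3 of esophageal and 3 of stomach organoids. The labels name mice 1, 2 and 4, each with 1 array per tissue, and equal numbers were taken as the same animal. All organoids were at passage 0 and were titled as controls. Harvest was on day 8 of culture for 5 arrays, and on day 7 for stomach of mouse 4. The labels give no strain, age or genetic alteration of these mice, and the methods describe wild-type animals and several reporter lines without saying which animals gave the arrays. Esophageal organoids were grown from dissociated epithelial cells and stomach organoids from glands of the corpus. Both media held EGF, noggin, FGF-10, nicotinamide, N-acetyl-L-cysteine and inhibitors of the TGF-β receptor kinase and of ROCK. The stomach medium also held gastrin and medium conditioned with WNT3A and R-spondin1, and the esophageal medium held forskolin, so tissue and medium changed together and cannot be told apart.

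Imprinted genes are transcribed mainly from the copy inherited from one parent, under the control of DNA methylation laid down in the germ line. Many of them regulate growth of the fetus and placenta, with paternally expressed genes such as *Igf2* tending to promote growth and maternally expressed genes such as *Igf2r*, *Cdkn1c* and *Grb10* tending to restrain it, and the expression of many declines after birth. The arrays measured the RNA of both parental copies together, and which copy was transcribed was not measured. *Igf2* and *H19* belong to the genes that the study used to mark embryonic precursor epithelium. The question for the arrays was how the RNA of the set differed between squamous esophageal and columnar stomach epithelium in culture.

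Among these genes, *H19* and *Mest* were higher in the esophageal organoids, and *Plagl1*, *Peg3* and *Igf2r* were higher in the stomach organoids. *Cdkn1c* was well above background in both tissues and its groups overlapped, and *Igf2*, *Dlk1*, *Meg3* and *Grb10* were close to background on nearly all arrays. Values are given as the authors' log2 values, which were background corrected and quantile normalized, and differences are esophagus minus stomach. A probe was called when its adjusted p in limma, fitted on all 6 arrays and adjusted over all probes, was under 0.05, and 8 of the 24 probes passed, beside 12.2% of all probes. Of the genes, 5 of 10 had at least 1 probe called, beside 16.2% of all gene names. In esophagus 2 genes were higher, *H19* and *Mest*, and in stomach 3, beside 7.88% and 8.33% of all gene names. Of the 24 probes, 4 were called higher in esophagus and 4 in stomach, beside 5.94% and 6.22% of all probes. This split moved with the processing, to 7 and 1 with the scanner's processed signal scaled to the 75th percentile, which changes background treatment and scaling together, and to 0 and 3 with values remade from mean intensities with a background offset of 50 (4 and 4 with an offset of 16) or without the stomach array of mouse 1 or of mouse 2. The methods give p under 0.05 and 1.5-fold as thresholds and do not state whether p was adjusted. With p taken without adjustment, 12 of the 24 probes and 5 of the 10 genes passed (8 probes higher in esophagus and 4 in stomach), beside 18.1% of all probes and 23.6% of all gene names. The groups did not overlap for 15 of the 24 probes, beside 28.6% of all probes. Without overlap, esophagus was higher in 10 of the 24 and stomach in 5 of the 24, beside 15.2% and 13.4% of all probes. Of the 10, 6 were probes of *H19*. Several probes of 1 gene read the same transcripts and are not independent counts of it. The median difference was 0.15 over the 24 probes and 0.02 over all probes.

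Signal limited many of these values. A probe was taken as well above background on an array when the scanner software had marked at least 0.5 of its spots so. By this rule 5 of the 24 probes were well above background on all 6 arrays, 7 were on no array, beside 38.4% and 43.1% of all probes, and 11 were on all arrays of at least 1 tissue. The lowest value well above background was 4.49 to 5.13 on the 6 arrays, and log2 values near it carry little information on the order of samples. Among all probes well above background on no array, 0.213% were called, and among those above it on all 6 arrays 20.4% were called.

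The esophagus array of mouse 1 stood apart in this set. It was the highest of the 3 esophagus arrays for all 6 *H19* probes and all 3 *Mest* probes, and for 15 of the 24 probes in all, 9 of which are these probes, and it was the lowest for 7. On the brightest probe of each gene it was the highest for 6 and the lowest for 4 of 10. Over all probes it was the highest for 33.5%. It was also the lowest esophagus array for 7 of 8 proliferation markers, while over all probes it was the lowest for 34.8%. Its correlation with the other esophagus arrays was 0.978 and 0.966, across probes well above background on all 6 arrays, compared with 0.976 between those 2 arrays. Differences of the called genes and of *H19* probes are therefore also given without it.

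*H19*, a maternally expressed noncoding RNA that shares a cluster and enhancers with *Igf2*, was higher in the esophageal organoids. It was read by 6 probes of 60 bases, all on the minus strand of chromosome 7. The sequences of the 3 probes that were well above background on at least 1 stomach array are shown with that of the probe farthest upstream, because probes at different places along this RNA gave differences of different size. They are written 5′ to 3′ as in the scanner files, entirely in lower case because the whole probe hybridizes, and their positions are in mm9, the build of those files.

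A_55_P1961127, chr7:149761492-149761551: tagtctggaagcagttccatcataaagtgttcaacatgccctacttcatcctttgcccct
A_30_P01021588, chr7:149761693-149761752: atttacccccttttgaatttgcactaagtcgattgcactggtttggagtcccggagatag
A_30_P01025068, chr7:149761756-149761815: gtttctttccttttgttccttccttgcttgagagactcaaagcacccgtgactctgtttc
A_30_P01026972, chr7:149762173-149762232: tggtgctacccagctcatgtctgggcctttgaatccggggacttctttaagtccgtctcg

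The first of these, A_55_P1961127, was the brightest *H19* probe and the one the files assign to a RefSeq noncoding transcript. Its log2 values in the esophageal organoids were 10.70, 8.15 and 9.05 for mice 1, 2 and 4, and in the stomach organoids 5.76, 5.41 and 6.70. The lowest esophagus array was above the highest stomach array, which was that of mouse 4 harvested on day 7. The difference was 3.34 ± 0.62 (SE, n = 3 per tissue), a 10.1-fold higher level in esophagus, with an adjusted p of 0.0108 in limma. In stomach the probe was well above background on the arrays of mice 1 and 4 and not on that of mouse 2. Without the esophagus array of mouse 1 the difference was 2.64 with an adjusted p of 0.00766. Without the stomach array of mouse 1 or of mouse 2 the adjusted p was 0.0564 or 0.0581, above the threshold. With a background offset of 50 the difference was 2.73 and was not called (adjusted p = 0.0520). With the processed signal scaled to the 75th percentile it was 4.06 (adjusted p = 0.00538). With 3 arrays against 3, the exact two-sided permutation test of a single probe cannot go below p = 0.1, and it gave 0.1 for every called probe of the set.

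The second *H19* probe, A_30_P01021588, gave 10.70, 7.59 and 8.61 in esophagus and 4.97, 4.56 and 6.34 in stomach. The groups were again apart, with the esophagus arrays in the same order as for the first probe. In stomach the array of mouse 4 alone was well above background, so the other 2 stomach values have no order. Its difference was 3.68 ± 0.78 (SE, n = 3 per tissue; adjusted p = 0.0197), 2.81 without the esophagus array of mouse 1, and the adjusted p rose to 0.0897 and 0.0924 without the stomach array of mouse 1 and of mouse 2, and to 0.0594 with trend and robust variances. With a background offset of 50 the difference was 2.82 and was not called (adjusted p = 0.0822). With the processed signal scaled to the 75th percentile it was 5.68 (adjusted p = 0.00840). The third, A_30_P01025068, gave 9.26, 6.63 and 7.53 against 5.33, 5.19 and 6.14, a difference of 2.25 ± 0.61 (SE, n = 3 per tissue) that did not pass the threshold (adjusted p = 0.0534 in limma, and 0.0479 with the mouse as a block). Without the esophagus array of mouse 1 it was 1.53, and with 1 array left out at a time its adjusted p ran from 0.0203 to 0.190, under the threshold without the esophagus array of mouse 1 or 2 and above it otherwise. The other 3 probes, which lie farther from the 3′ end of the RNA, were well above background on no stomach array. They had differences of 1.06, 0.87 and 1.16 with adjusted p-values of 0.0928, 0.213 and 0.136. For the first 2 of these probes the fitted level over the 3 esophagus arrays was 2.09-fold and 1.83-fold higher. For the third it was at least 2.05-fold higher, taking each stomach array at the probe's own value or at the array's lowest value well above background, whichever is higher. For the first 2 the probe's own value was the higher on every stomach array, so their folds are no separate bounds. None of the 3 probes was called. Without the esophagus array of mouse 1 the differences were 0.67, 0.41 and 0.72, so these folds rest on that array. For the 3 probes first described every esophagus array was above every stomach array, and the esophagus arrays ran in the order mouse 1, mouse 4, mouse 2. The other 3 probes also did not overlap, but for 2 of them the esophagus array of mouse 2 was not well above background and its place beside the stomach arrays carries no information.

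**Figure D1:**
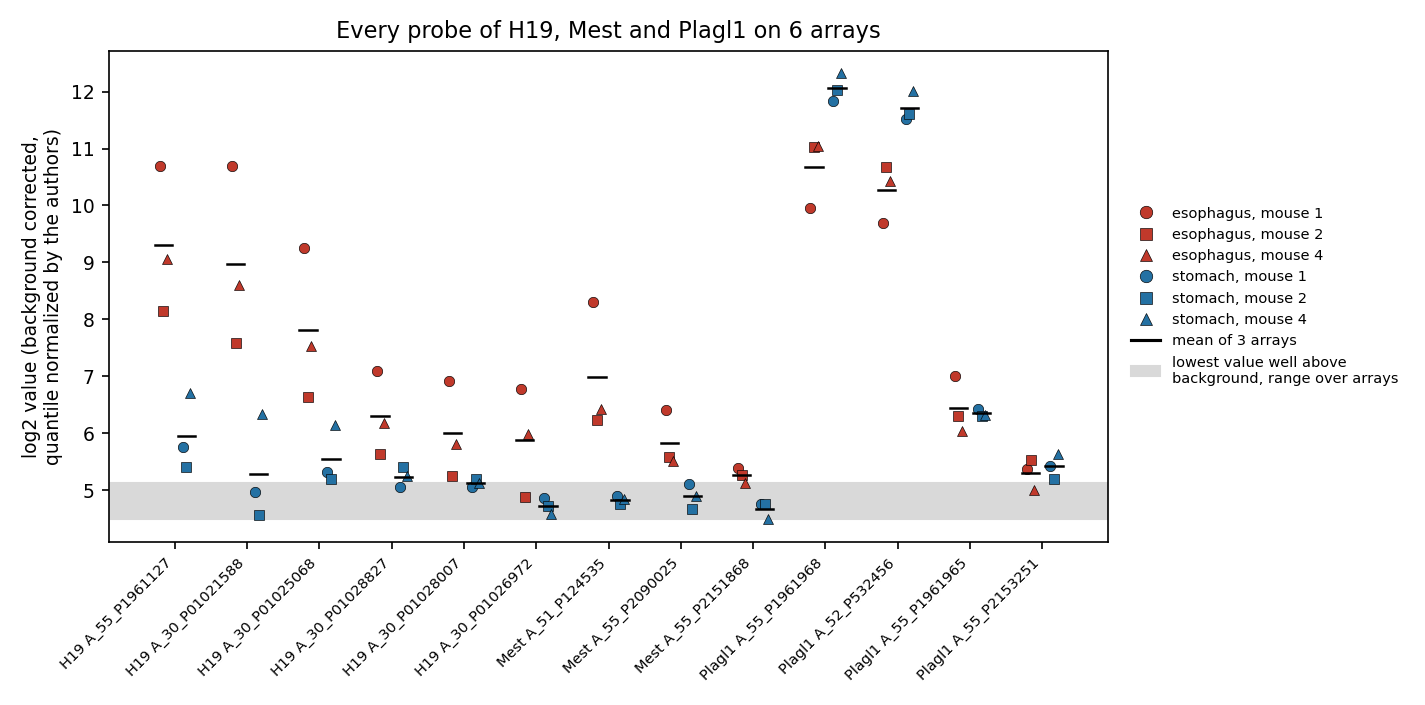
Log2 values (background corrected and quantile normalized by the authors) of every probe of *H19*, *Mest* and *Plagl1* on the 6 arrays, with red symbols for esophagus, blue for stomach, 1 symbol shape per mouse, black bars for the mean of 3 arrays and a grey band for the range of the lowest values well above background. The esophagus mean was above the stomach mean for all *H19* and *Mest* probes, with mouse 1 highest, while the 2 brightest *Plagl1* probes were higher in stomach and its other 2 probes were not called.

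*Igf2*, which encodes the paternally expressed insulin-like growth factor of fetal growth and is the partner of *H19* in its cluster, was represented by 1 probe on the minus strand at chr7:149839661-149839720 of mm9. Its log2 values were 6.47, 4.80 and 4.83 in esophagus and 5.03, 4.85 and 4.95 in stomach. The esophagus array of mouse 1 alone was well above background, and the other 5 arrays lay together near the detection limit. The difference of 0.42 ± 0.42 (SE, n = 3 per tissue) did not pass the test (adjusted p = 0.637 in limma), and its 95% interval ran from -0.56 to 1.39. Without the esophagus array of mouse 1 it was -0.13. No difference in *Igf2* was therefore detectable at this signal, beside a difference of 3.34 for the brightest probe of *H19*.

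*Igf2r*, the receptor that takes IGF2 to the lysosome for degradation, was well above background throughout. Its probe is placed at chr17:12875253-12875263 of mm9 on the minus strand and was printed on 10 spots, all of which passed on every array. The log2 values were 12.32, 12.40 and 12.40 in esophagus and 13.16, 13.08 and 13.49 in stomach. The esophagus arrays lay within 0.1 of each other and all below the stomach arrays. The level was 1.82-fold higher in stomach, a difference of -0.87 ± 0.16 (SE, n = 3 per tissue; adjusted p = 0.0104 in limma), and -0.84 without the esophagus array of mouse 1 (adjusted p = 0.0307). The processed signal scaled to the 75th percentile, in place of the authors' values, gave the same direction but no call, with -0.59 and an adjusted p of 0.328. Under that setting the median difference of all probes was 0.19.

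**Figure D2:**
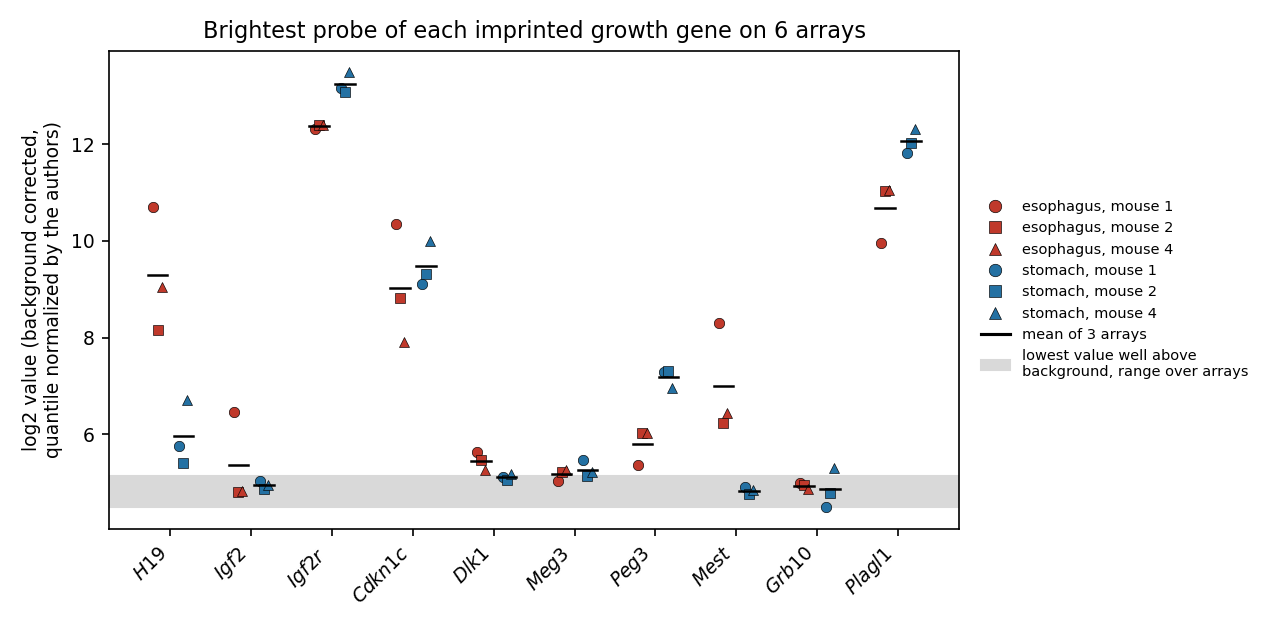
Log2 values (background corrected and quantile normalized by the authors) of the brightest probe of each of the 10 genes, with red symbols for esophagus, blue for stomach, 1 symbol shape per mouse, black bars for the mean of 3 arrays and a grey band for the range of the lowest values well above background. *H19* and *Mest* were higher in esophagus, *Igf2r*, *Peg3* and *Plagl1* in stomach, and *Igf2*, *Dlk1*, *Meg3* and *Grb10* lay near the band. Levels of different probes cannot be compared with each other.

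*Cdkn1c* encodes a maternally expressed inhibitor of cyclin-dependent kinases that restrains the cell cycle. Its probe at chr7:150644753-150644812 of mm9 was well above background on all 6 arrays. Its log2 values were 10.341, 8.827 and 7.915 in esophagus and 9.118, 9.318 and 10.004 in stomach. The esophagus arrays spread over the whole range, with mouse 1 above and mouse 4 below all stomach arrays. The difference of -0.45 ± 0.56 (SE, n = 3 per tissue) had an adjusted p of 0.712 and a 95% interval from -1.76 to 0.85, which reaches beyond 3-fold toward stomach. It was -1.11 without the esophagus array of mouse 1 (adjusted p = 0.102) and 0.10 without that of mouse 4. None of the 6 other inhibitors of cyclin-dependent kinases listed with it passed the test either, with differences from -0.80 to 0.79, beside 14.9% called of all gene names. *Cdkn1a*, another inhibitor of this family, gave 13.485, 13.001 and 11.560 in esophagus, the same order of mice as *Cdkn1c*, and 11.59, 11.60 and 12.48 in stomach. *Cdkn2a* and *Cdkn2b* also ran in this order in esophagus. *Cdkn2c* (9.57, 10.78 and 10.88) and *Cdkn2d* (11.07, 12.00 and 12.54) ran in the reverse order there, and *Cdkn1b* followed neither order.

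*Grb10* encodes an adaptor that binds the insulin and IGF1 receptors and dampens their signaling. Its only probe was well above background on no array, with 4.99, 4.95 and 4.85 in esophagus and 4.49, 4.79 and 5.29 in stomach (adjusted p = 0.886). *Dlk1*, a paternally expressed membrane protein of the Notch ligand family that is a marker of immature cells, had 2 probes, neither of them well above background on any array, with differences of 0.34 and 0.19 (adjusted p = 0.229 and 0.559). The noncoding RNA *Meg3*, expressed from the maternal copy of the same cluster as *Dlk1*, had 3 probes. The brightest of them is shown here because its position, on the plus strand of chromosome 12, places it in the *Dlk1* and *Meg3* cluster.

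A_52_P196568, chr12:110799558-110799617: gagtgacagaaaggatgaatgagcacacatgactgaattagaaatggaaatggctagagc

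It gave 5.04, 5.21 and 5.25 in esophagus and 5.47, 5.12 and 5.21 in stomach, and was well above background on 1 array of each tissue. The other 2 *Meg3* probes were well above background on no array. The differences of the 3 probes were -0.10, 0.04 and -0.11 with adjusted p-values of 0.792, 0.922 and 0.787. The *Dlk1*, *Meg3* and *Grb10* probes were thus too dim to give an order of the tissues.

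*Mest*, a paternally expressed gene for a hydrolase-fold protein of the endoplasmic reticulum that is abundant in embryonic mesoderm, was higher in the esophageal organoids. Its brightest probe, at chr6:30698279-30698338 of mm9 on the plus strand, was printed on 10 spots. It gave 8.30, 6.23 and 6.43 in esophagus and 4.90, 4.75 and 4.84 in stomach. Every esophagus array was well above background and no stomach array was, with mouse 1 again highest. The difference was 2.16 ± 0.49 (SE, n = 3 per tissue; adjusted p = 0.0275 in limma), which bounds the esophageal level as at least 4.26-fold higher. Without the esophagus array of mouse 1 it was 1.502 with an adjusted p of 0.00132, and leaving out the stomach array of mouse 1, 2 or 4 gave an adjusted p of 0.0983, 0.107 or 0.0597. With a background offset of 50 the difference was 1.40 and was not called (adjusted p = 0.119). With the processed signal scaled to the 75th percentile it was 4.61 (adjusted p = 0.00101).

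A second *Mest* probe, A_55_P2090025, gave 6.41, 5.58 and 5.51 against 5.10, 4.67 and 4.90, a difference of 0.94 ± 0.26 (SE, n = 3 per tissue) with an adjusted p of 0.0580, or 0.0337 with the mouse as a block. Without the esophagus array of mouse 1 the difference was 0.65 (adjusted p = 0.0739). It was well above background on the esophagus array of mouse 1 only. The third probe, A_55_P2151868, was well above background on no array, so its call (0.60, adjusted p = 0.0448) carries no fold, and it was kept in 1 of 12 alternatives. The call was lost with the mouse as a block (adjusted p = 0.0699) and with any 1 array left out (0.0544 to 0.118), among them the esophagus array of mouse 1 (0.53, adjusted p = 0.111). The groups did not overlap for any of the 3 probes. *Mest* ends close to the end of *Copg2*, a gene for a coat protein of transport vesicles on the opposite strand, whose brightest probe was also higher in esophagus, by 0.76 ± 0.15 (SE, n = 3 per tissue; adjusted p = 0.0139, and up to 0.0730 with 1 array left out).

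*Plagl1* encodes a paternally expressed zinc finger transcription factor that can halt the cell cycle and regulates other imprinted genes. It was higher in the stomach organoids at 2 of its 4 probes. The brightest, A_55_P1961968, lies at chr10:12850832-12850891 of mm9 on the plus strand and gave 9.96, 11.03 and 11.05 in esophagus and 11.83, 12.04 and 12.33 in stomach. All stomach arrays were above all esophagus arrays, and the esophagus array of mouse 1 was the lowest. The difference was -1.38 ± 0.31 (SE, n = 3 per tissue; adjusted p = 0.0249), 2.61-fold higher in stomach. It was -1.02 without the esophagus array of mouse 1 (adjusted p = 0.0168). Leaving out the stomach array of mouse 1, 2 or 4 took the adjusted p to 0.0656, 0.0915 or 0.0644.

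The neighboring probe A_52_P532456, at chr10:12851280-12851339, gave 9.69, 10.67 and 10.43 against 11.51, 11.60 and 12.02. The difference of -1.44 ± 0.27 (SE, n = 3 per tissue; adjusted p = 0.0120) stayed past the threshold with each array left out in turn, with adjusted p-values from 0.0136 to 0.0472, and was -1.16 without the esophagus array of mouse 1. With the processed signal scaled to the 75th percentile the adjusted p was 0.0829 for this probe and 0.124 for the brightest one. The other *Plagl1* probes, A_55_P1961965 and A_55_P2153251, lie upstream of both. The first of them was well above background on all arrays, with 7.01, 6.30 and 6.04 in esophagus and 6.42, 6.30 and 6.32 in stomach, and the groups overlapped. Their differences were 0.10 and -0.12 with adjusted p-values of 0.867 and 0.797, so the probes of this gene disagree. The files assign 3 of the 4 probes, both called ones and A_55_P1961965, to the same RefSeq transcript record and A_55_P2153251 to another.

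*Peg3*, a paternally expressed zinc finger gene active in growth and maternal behavior, was higher in the stomach organoids. Its brighter probe, at chr7:6658774-6658833 of mm9 on the minus strand, gave 5.36, 6.03 and 6.01 in esophagus and 7.29, 7.30 and 6.95 in stomach. The groups were clearly apart, and 2 of the 3 esophagus arrays were well above background. The difference was -1.38 ± 0.22 (SE, n = 3 per tissue; adjusted p = 0.00533 in limma), 2.60-fold higher in stomach. It was -1.16 without the esophagus array of mouse 1, and this probe was past the threshold under all 13 alternative settings, with differences from -2.35 to -1.01. The other *Peg3* probe was well above background on no array (-0.31, adjusted p = 0.303).

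**Figure D3:**
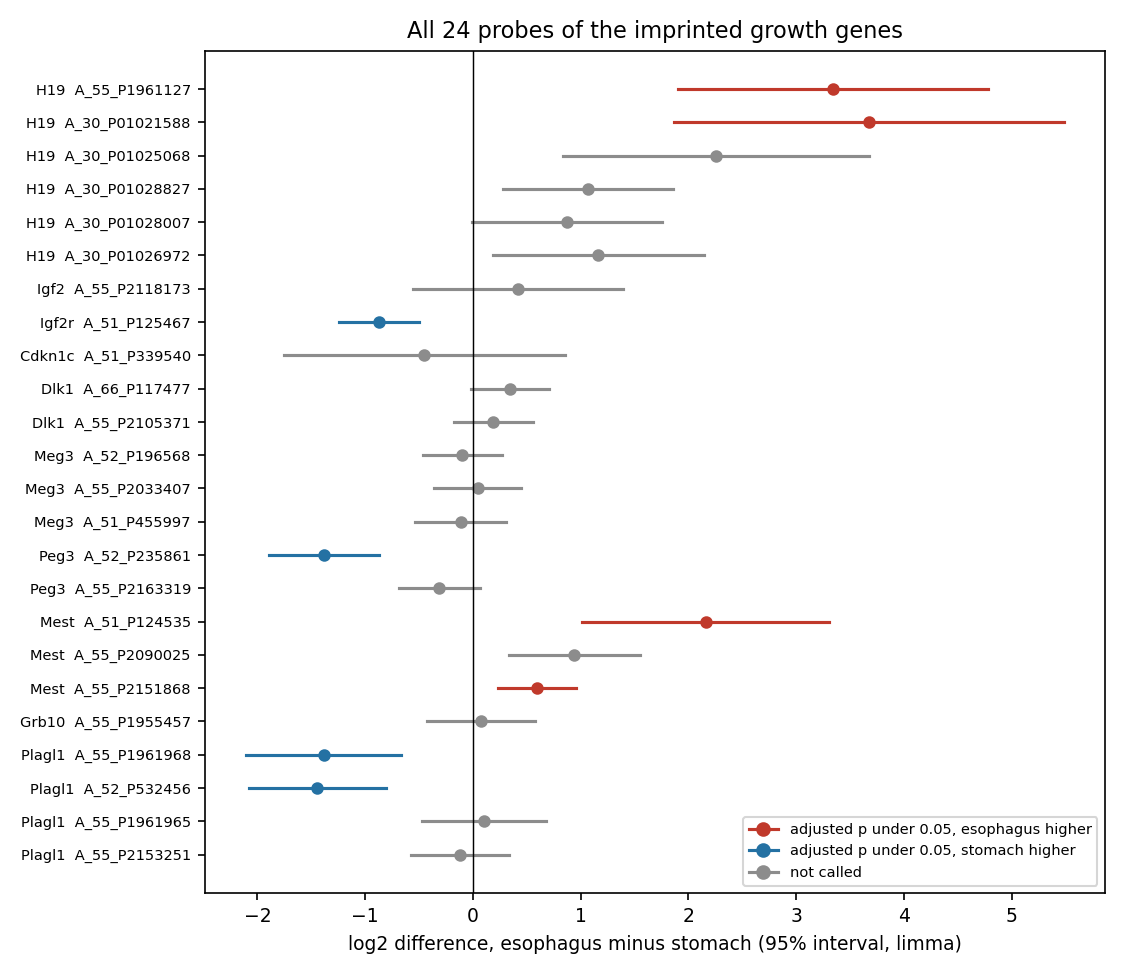
Difference in log2 value between esophagus and stomach organoids, with its 95% interval from limma (n = 3 arrays per tissue), for all 24 probes of the 10 genes. Red marks probes called higher in esophagus, blue those called higher in stomach and grey those not called. The 4 red probes are of *H19* and *Mest*, and the 4 blue probes are of *Igf2r*, *Peg3* and *Plagl1*.

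Other imprinted genes, some in the clusters that hold these genes and some elsewhere, were read as well. Of 60 listed in addition to the set 57 were on the arrays. On the brightest probe of each, 5 were higher in esophagus, 10 were higher in stomach and 42 were not called, beside 14.9% called of all gene names. The median difference was 0.00014 over these genes and 0.03 over all gene names. Among the 5 higher in esophagus, *Klf14* was well above background on no array and kept its call in 4 of 12 alternatives. The largest difference was that of *Kcnq1*, a potassium channel gene of the cluster that holds *Cdkn1c*. It gave 5.63, 5.65 and 6.22 in esophagus and 13.63, 13.78 and 13.44 in stomach, a difference of -7.78 ± 0.20 (SE, n = 3 per tissue; adjusted p = 3.69e-07). *Ppp1r9a*, a gene for an actin-binding protein of neurons, was at least 15.05-fold higher in stomach, where it gave 9.17, 9.13 and 8.44, and was well above background on no esophagus array (adjusted p = 1.49e-05).

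*Begain*, at the edge of the *Dlk1* and *Meg3* cluster, was at least 8.74-fold higher in esophagus, with 8.38, 8.21 and 7.44 against 4.80, 4.79 and 4.90 (adjusted p = 1.08e-04). *Snrpn*, which encodes a splicing protein, was lower in esophagus, with a difference of -2.90 ± 0.18 (SE, n = 3 per tissue; adjusted p = 3.50e-05). *Gatm*, the enzyme of the first step of creatine synthesis, and *Ddc*, a decarboxylase that makes dopamine and serotonin and neighbors *Grb10*, were at least 6.61-fold and at least 4.18-fold higher in stomach and well above background on no esophagus array.

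Some further neighbors were chosen after their values were seen, because they lie in the cluster of a set member. In the *Cdkn1c* cluster, *Slc22a18*, a transporter gene, and *Ascl2*, a transcription factor gene of intestinal stem cells and a known target of WNT signaling, were higher in stomach, with differences of -1.32 and -2.09 (adjusted p = 0.00144 and 0.00240), the former with 0.0571 for the processed signal scaled to the 75th percentile. *Phlda2*, a placental growth regulator of that cluster, differed by 0.32 (adjusted p = 0.602), and its noncoding RNA *Kcnq1ot1* by 0.49 (adjusted p = 0.202). *Airn*, the noncoding RNA that silences the paternal copy of *Igf2r*, gave 10.780, 11.466 and 10.976 in esophagus and 12.363, 12.254 and 11.497 in stomach at its brightest probe, a difference of -0.96 with an adjusted p of 0.0663, and 1 of its 4 probes was called higher in stomach. *Rtl1* next to *Dlk1*, and *Zim1* and *Usp29* next to *Peg3*, were well above background on no array. *Mirg*, a noncoding RNA of the *Dlk1* and *Meg3* cluster, was well above background on all arrays at its brightest probe. It gave 14.26, 14.24 and 13.38 in esophagus and 14.55, 14.52 and 13.47 in stomach (adjusted p = 0.790 in limma). Of its 3 probes 1 was called higher in esophagus.

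Genes of the IGF axis were read beside *Igf2*, *Igf2r* and *Grb10*, which act on it. Of 16 such genes on the arrays, 4 were higher in esophagus, 4 were higher in stomach and 8 were not called, beside 14.9% called of all gene names, with a median difference of 0.18. *Igfbp7*, among those higher in esophagus, kept its call in 2 of 12 alternatives. *Igf1r*, the receptor that passes on the growth signal of IGF1 and IGF2, gave 11.592, 11.863 and 11.497 in esophagus and 9.97, 9.81 and 9.33 in stomach. The groups did not overlap, and the difference was 1.95 ± 0.21 (SE, n = 3 per tissue; adjusted p = 6.17e-04), opposite in sign to that of *Igf2r*. *Insr*, the insulin receptor, chosen for this comparison after its values were seen, had a difference of -0.92 (adjusted p = 0.0111). Its adjusted p was 0.0608 without the stomach array of mouse 1 and 0.0803 with the processed signal scaled to the 75th percentile. *Irs1*, the docking protein downstream of both receptors, gave 8.01, 5.76 and 7.32 against 10.53, 10.21 and 9.36, a difference of -3.00 ± 0.56 (SE, n = 3 per tissue; adjusted p = 0.0109), and leaving out the stomach array of mouse 1 or of mouse 2 took the adjusted p above the threshold, up to 0.0584.

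Among the secreted IGF-binding proteins, *Igfbp2* gave 10.56, 10.93 and 8.15 in esophagus and was well above background on no stomach array, which makes it at least 30.2-fold higher in esophagus (adjusted p = 0.00193). The esophagus array of mouse 4 was the lowest by over 2 log2 units, and without it the fitted difference rose from 4.91 to 5.78. With every stomach array near background, neither difference is exact. *Igfbp3* was also higher in esophagus, by 3.25 ± 0.33 (SE, n = 3 per tissue; adjusted p = 4.99e-04), with 1 of the 3 stomach arrays well above background. *Igfbp5* went the other way and was at least 5.56-fold higher in stomach, with 8.004, 7.452 and 6.924 there (adjusted p = 3.85e-04). *Igf2bp2*, an RNA-binding protein that binds *Igf2* mRNA, was lower in esophagus, with a difference of -1.27 ± 0.19 (SE, n = 3 per tissue; adjusted p = 0.00351). *Igf1* was well above background on all arrays, with 8.45, 8.14 and 7.89 in esophagus and 7.614, 8.001 and 8.364 in stomach (adjusted p = 0.752).

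**Figure D4:**
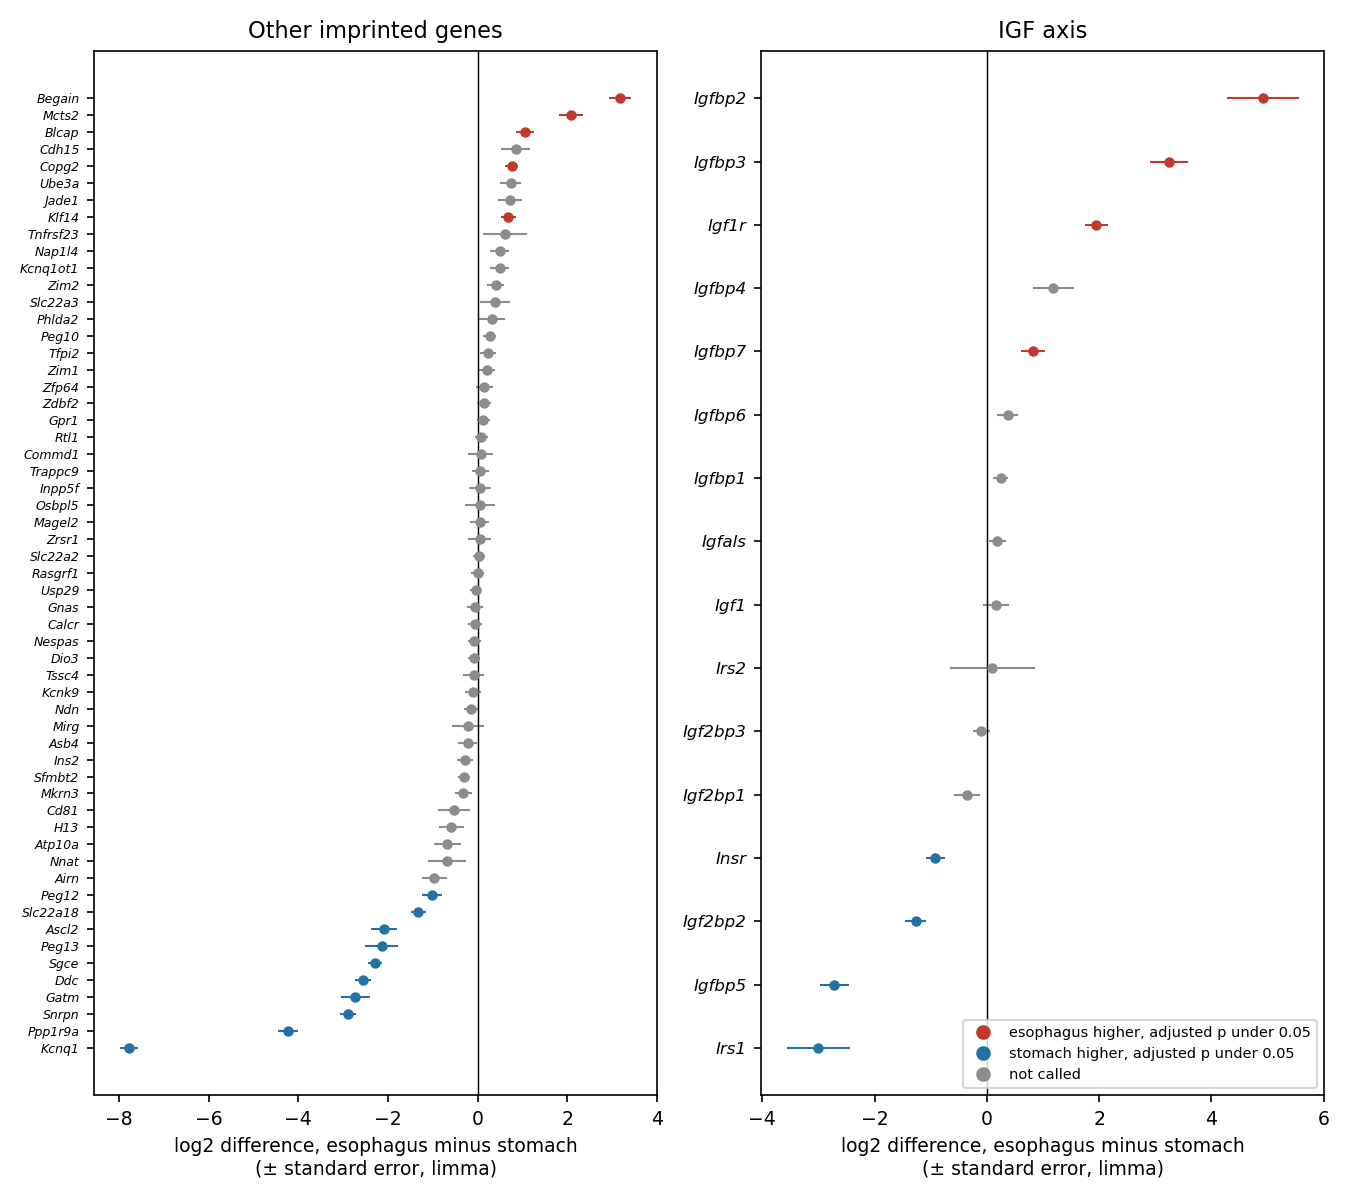
Difference in log2 value, esophagus minus stomach, with the standard error from limma (n = 3 arrays per tissue), for the brightest probe of 57 other imprinted genes and of 16 genes of the IGF axis. Red marks genes called higher in esophagus, blue those called higher in stomach and grey those not called. *Kcnq1* lies at -7.78, and *Igfbp2*, which was well above background on no stomach array, at 4.91.

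Of 15 factors that set or keep imprints, which include DNA methyltransferases and their partners, 14 were not called on the brightest probe, beside 14.9% called of all gene names, and *Zfp57*, a zinc finger protein that protects methylated imprints in the early embryo, was at least 4.61-fold higher in stomach (4.67, 4.85 and 5.21 against 7.06, 7.29 and 7.60; adjusted p = 1.97e-04). Of the 4 other genes that mark embryonic precursor epithelium with *Igf2* and *H19*, the matrix proteoglycan gene *Vcan* was higher in esophagus (1.40, adjusted p = 0.00201) and *Bex1* was higher in stomach (-4.86, adjusted p = 2.09e-05). *Sox11* and *Cldn6* were not called, and were well above background on 1 esophagus array and on no array, respectively. In this marker group 1 gene was thus called in each direction, beside 14.9% of all gene names called.

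The tissue labels were borne out by their markers, with all 4 squamous markers higher in esophagus (median difference 11.2) and all 5 columnar markers higher in stomach (median difference -7.96). Several imprinted genes are abundant in mesenchyme, so markers of other cell types were read as well. Of 10 fibroblast markers none was called, none was well above background throughout a tissue and 6 were so on no array, with median levels of 4.752 to 4.805 in esophagus and 4.82 to 4.89 in stomach. None of the 5 smooth muscle markers was called or well above background throughout a tissue, with median levels of 4.803 to 5.236 in esophagus and 4.74 to 4.75 in stomach. The esophagus array of mouse 2 stood apart for 2 of them, *Acta2* (6.69, against 4.93 and 4.97 on the other esophagus arrays) and *Cnn1* (6.35, against 5.69 and 5.07). The other 3 were well above background on no array. Of 4 endothelial markers, *Vwf* was called at least 1.55-fold higher in stomach (adjusted p = 0.0302) and was well above background on no esophagus array, beside 14.9% called of all gene names, and median levels were 5.49 to 5.64 in esophagus and 5.87 to 6.05 in stomach. Throughout at least 1 tissue 3 of the 4 were well above background. *Pecam1* (5.80, 5.98 and 5.99 in esophagus, 6.03, 5.94 and 6.37 in stomach) was so on all arrays and was not called. The same held for *Kdr* (9.10, 9.12 and 8.44 in esophagus, 8.63, 8.76 and 8.52 in stomach).

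None of 5 immune markers was called, with median levels of 5.03 to 5.33 in esophagus and 4.89 to 4.99 in stomach. Throughout at least 1 tissue 2 of them were well above background. On no array were 3 so, among them *Ptprc*, which all white blood cells express. *Cd3e* was well above background on all arrays, with 7.39, 7.23 and 7.55 in esophagus and 7.35, 7.97 and 8.34 in stomach. *Cd68*, a lysosomal protein gene of macrophages, gave 14.775, 12.945 and 11.801 in esophagus and 11.04, 11.22 and 12.36 in stomach, and was thus highest on the same esophagus array as *H19* and *Mest* (adjusted p = 0.211). *Adgre1*, also a macrophage marker, gave 4.82, 4.91 and 4.46 in esophagus and was well above background on no array. Of 5 neural markers 2 were higher in esophagus, the tubulin gene *Tubb3* (4.37, adjusted p = 0.00271) and *Elavl4* (0.92, adjusted p = 0.0228), beside 14.9% of all gene names called, with median levels of 4.915 to 5.001 in esophagus and 5.25 to 5.42 in stomach. The part of fibroblasts, smooth muscle, immune, endothelial and neural cells in the differences of the imprinted genes was not tested. Of 8 proliferation markers none was called. Among the 3 esophagus arrays 7 of them were lowest on that of mouse 1, and their part in the *H19* and *Mest* levels of that array was not tested. In RNA of whole organoids, fewer cells that express a gene and less RNA per cell cannot be told apart.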

How the data were processed

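Cy3-labelled RNA of 6 organoid samples was hybridized to Agilent mouse arrays, and the authors scanned them with Feature Extraction 11.5.1.1. The deposited scanner files hold the intensity of each spot with its background and flags. The authors' deposited log2 values were background corrected and quantile normalized. Normexp with an offset of 15 and quantile normalization remade them with a median absolute difference of 0.00433, and such an offset makes fold changes of dim probes smaller. Their 2029 empty cells were the outlier-marked spots.

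Spots of a probe were averaged, and lmFit and eBayes of limma 3.58.1 in R 4.3.3 were run on the 6 arrays with tissue as the only term, and p-values were adjusted over 55681 probes by the Benjamini-Hochberg method. The code was tested on simulated data. On the arrays 45.5% to 51.1% of spots were well above background and none was saturated, and the number of arrays limits precision. Where 1 value per gene was needed, the probe of highest mean level was taken. An "at least" fold sets the brighter tissue against the higher of the dim probe's value and the lowest value well above background on each array. Where the dim probe's own value was the higher on every array, it equals the fitted fold.

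Members and lists (other imprinted genes, IGF axis, imprint maintenance, CDK inhibitors, precursor, proliferation and cell type markers) were chosen with earlier results of these data known. All members are named, and of each list at most 6 called genes with the largest differences, beside exceptions stated in the text. The labels give both tissues the same mouse numbers, which were taken as the same animals. Deviations from the tissue means correlated with r = 0.0499, 0.0301 and 0.00656 within mice 1, 2 and 4, and from -0.105 to 0.0429 between mice, so the values themselves show no pairing. The methods do not state whether p-values were adjusted. Slide 1 held 5 arrays and slide 2 the esophagus array of mouse 4. Alternatives were the mouse or slide as a block, mean intensities with other background offsets, the scanner's processed signal scaled to the 75th percentile, a filter on dim probes, trend and robust variances, each array left out, and p under 0.05 without adjustment with 1.5-fold. The last of these is not among the 12 or 13 alternatives counted for a probe.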

Additional observations from a re-analysis of the deposited data

How the results depend on the processing

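The 8 called probes and 5 called genes of the set fell to 3 probes and 3 genes with a background offset of 50, and the processed signal scaled to the 75th percentile, a change of background treatment and scaling together, left 3 genes. Leaving out 1 array at a time gave 3 to 10 called probes and 3 to 5 called genes of the set, and 4091 to 7415 called probes in all, beside 6770 with every array. The lowest of these counts came without the stomach array of mouse 1 (3, 3 and 4091) and of mouse 2 (3, 3 and 4152), and without that of mouse 4 there were 5 called probes of the set. With the mouse as a replicate block 9 probes of the set and 6153 of all probes were called, and the block changed the call of no other probe of the set than the *H19* probe and the *Mest* probes for which it is given above. *Igfbp7*, of the IGF axis, lost its call with it (adjusted p = 0.0766) and kept the call in 2 of 12 alternatives. With 1 array left out at a time its adjusted p ran up to 0.150. At p under 0.05 without adjustment and 1.5-fold, 12 probes of the set and 10096 of all were counted. No called probe of the set changed sign under any setting. Of the probes not called, *Igf2* turned to -0.13 without the esophagus array of mouse 1, and *Cdkn1c* to 0.10 with the slide as a block, which equals leaving out the esophagus array of mouse 4. The *Meg3* probe A_52_P196568 turned to 0.11 (offset 16), 0.059 (offset 50), 0.31 (75th percentile) and 0.0037 (without stomach of mouse 1), A_55_P2033407 to -0.00072 (offset 50), -0.27 (75th percentile), -0.00032 (slide) and -0.078 (without stomach of mouse 4), and A_51_P455997 to 0.62 (75th percentile) and 0.047 (without esophagus of mouse 1). *Grb10* turned to -0.0063 (offset 50), -0.038 (75th percentile) and -0.11 (without stomach of mouse 1). The *Plagl1* probe A_55_P1961965 turned to -0.17 (75th percentile) and -0.18 (without esophagus of mouse 1), and A_55_P2153251 to 0.030 (slide). With 1 array left out at a time the ranges were -0.13 to 0.70 (*Igf2*), -1.11 to 0.10 (*Cdkn1c*), -0.17 to 0.0037, -0.078 to 0.19 and -0.23 to 0.047 (*Meg3*, probes as above), -0.11 to 0.29 (*Grb10*), and -0.18 to 0.31 and -0.23 to 0.030 (*Plagl1*, probes as above). The cause of these shifts was not tested. Over all member probes and settings 254 values kept direction and side of the threshold, 19 passed it newly, 29 lost it and 21 changed sign.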

Other observations

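The genes whose brightest probe was nearest to that of *H19* in Euclidean distance over the 6 log2 values were *Zfp365* (1.502), *Tmem28* (1.63), *Ikzf2* (1.72), *Prkg2* (1.73) and *Wnt9a* (1.74). *Zfp365* gave 10.51, 8.86 and 8.94 in esophagus and 6.55, 6.31 and 7.21 in stomach, so that mouse 1 was highest in esophagus and mouse 4 in stomach, as for *H19*. These genes were picked from 34298 names for their likeness, which gives no test.

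The antisense RNA *Peg3os*, read by a probe inside the span of the *Peg3* probes on the other strand, was well above background on no array (0.10, adjusted p = 0.786 in limma).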
